A study of Mus musculus with 4 samples.

Results

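Forkhead (Fox) transcription factors were described in a mouse embryonic stem cell line. They are a family of DNA-binding proteins that share the winged-helix forkhead domain and are named by subfamily letter. The members were the genes whose symbol is Fox followed by a subfamily letter and number, with Foxj1 and Foxa2 left out. That rule, which uses names and no measured values, took 41 of the 32592 genes of the table. Messenger RNA had been measured by sequencing of poly(A) libraries, each made with 1 µg RNA, as single-end reads of 100 bp. All 4 samples were CCE cells, a 129/Sv line grown without feeder cells in serum and leukemia inhibitory factor, so both groups represent a single cell line. The 2 samples labelled knockdown had been infected with shRNAs against Eif4a2, the constructs sheIF4A2-2 and sheIF4A2-3. The 2 samples labelled control had received control shRNAs, shLuc and shEV. All were selected for 3 days in puromycin at 1 µg/mL and collected on day 4.5. Which construct went into which sample is not labelled, and neither is whether replicates are separate cultures; the p-values therefore measure a spread that may be technical. Groups are called knockdown-labelled libraries and controls below.

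As background, forkhead factors bind a common DNA core and differ mainly in when and where they are made. FOXO proteins are held in the cytoplasm by insulin and AKT signalling, FOXH1 brings activated SMAD proteins to Nodal targets, FOXM1 drives genes of mitosis, and FOXD3 is needed to maintain the pluripotent epiblast and embryonic stem cells. FOXA, FOXC, FOXE, FOXF and FOXL proteins act later, in endoderm, mesenchyme, thyroid and ovary.

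The libraries held 4604200 to 13681765 reads, and control 2 was the shallowest, where 3 reads correspond to a normalized signal (gene counts over an effective library size) of 0.6789, against 0.2208 to 0.2664 in the others. The median absolute log2 difference between replicates was 0.0955 for knockdown 1 and 2 and 0.198 for control 1 and 2. Eif4a2, the targeted gene, had a signal of 752.5 and 814.0 in knockdown-labelled libraries, against 530.6 and 379.0 in controls (log2 change 0.80, SE 0.15, limma adjusted p = 0.014). The targeted transcript was thus higher in knockdown-labelled libraries, which goes against the label, and directions below are those between labels, not those of a measured loss of Eif4a2. Embryonic stem cell markers were abundant in all libraries, with Pou5f1 at 1923.3 and 1840.9 in knockdown-labelled libraries and at 2088.8 and 2305.2 in controls.

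Of the 41 forkhead genes, 27 had enough reads to be tested, 10 more had at least 1 read, and 4 (Foxb2, Foxe3, Foxi1 and Foxi2) had none in any library. Levels between genes were compared as signal per kb of exon, since a longer transcript gives more reads. The length was that of all annotated exons of a gene merged, such as 13751 bp for Foxp1 and 2324 bp for Foxd3. Which transcripts were made was not measured, so the order depends on the annotation. On that scale the 26 tested genes shown ran from 0.195 for Foxe1 to 46.4 for Foxd3, averaged over the 4 libraries. By that mean the 10 most abundant were, in order, Foxd3, Foxp4, Foxo4, Foxo3, Foxh1, Foxm1, Foxk2, Foxn2, Foxk1 and Foxo1. Foxd3 stood at 46.4, Foxp4 at 40.1, Foxo4 at 33.7 and Foxo3 at 31 signal per kb, while Foxo1, the tenth, stood at 9. Within the groups the order differed at the top: Foxp4 averaged 41.1 and Foxd3 31.9 signal per kb in knockdown-labelled libraries, while Foxd3 was at 60.9 in controls. In the plot of levels by library, some factors of later lineages, among them Foxa1, Foxe1 and Foxs1, were at the low end. The signal summed over all 41 genes was 1371.0 and 1355.8 in knockdown-labelled libraries and 1392.1 and 1523.3 in controls.

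**Figure D1:**
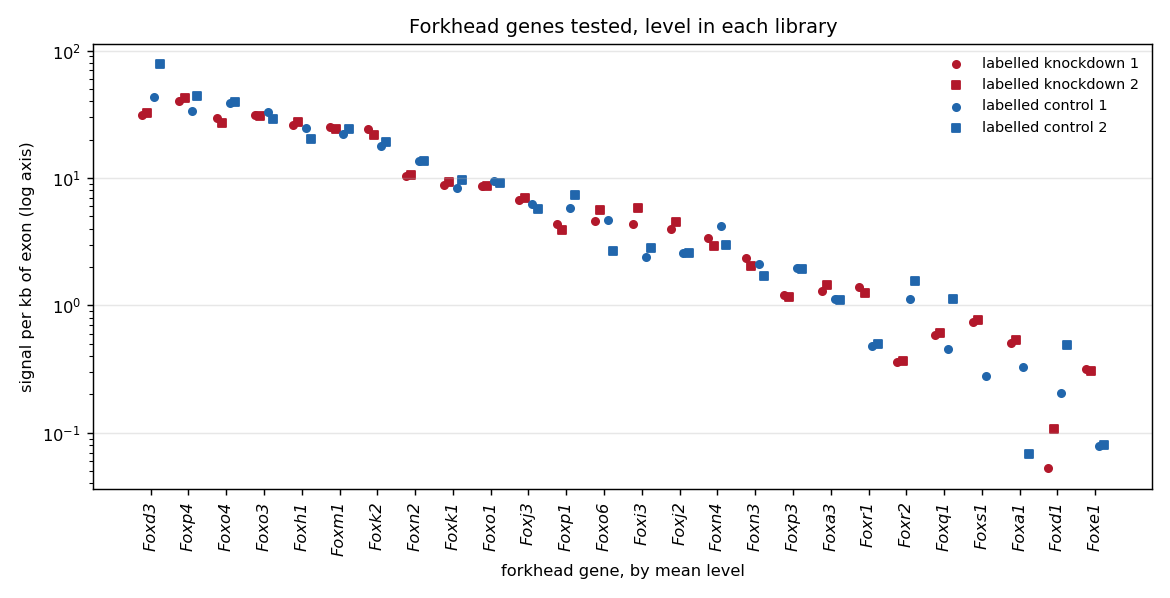
Level of 26 of the 27 tested forkhead genes in each library, as normalized signal per kb of exon on a log axis, ordered by the mean over libraries. Each point is 1 library (knockdown left of control); Foxs1 had 0 reads in control 2 and has no point there. Foxd3 averaged 46.4 and Foxe1 0.195.

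Between the groups, 3 forkhead genes rose (Foxr1, Foxi3 and Foxj2) and 6 fell (Foxr2, Foxd3, Foxp1, Foxp3, Foxo4 and Foxn2) in knockdown-labelled libraries, by limma on log2(signal + 1) at an adjusted p below 0.05. The other 18 tested genes did not pass. The 9 genes called are 33.3% of the tested members, beside 23% of all 14890 genes tested. Of all genes, 10.5% rose and 12.4% fell. The median log2 change was 0.10 over the tested members and -0.01 over all genes tested, and the median absolute log2 change was 0.38 and 0.27. Values did not overlap between the groups for 19 of the 27 members, or 70.4%, beside 66.8% of all genes tested. Knockdown-labelled libraries were both higher for 11 of them, beside 32.1% of all genes tested, and both lower for 8, beside 34.6%. With 2 libraries a group, 0.333 is the smallest p an exact permutation test allows, and the calls rest on the spread shared across genes.

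**Figure D2:**
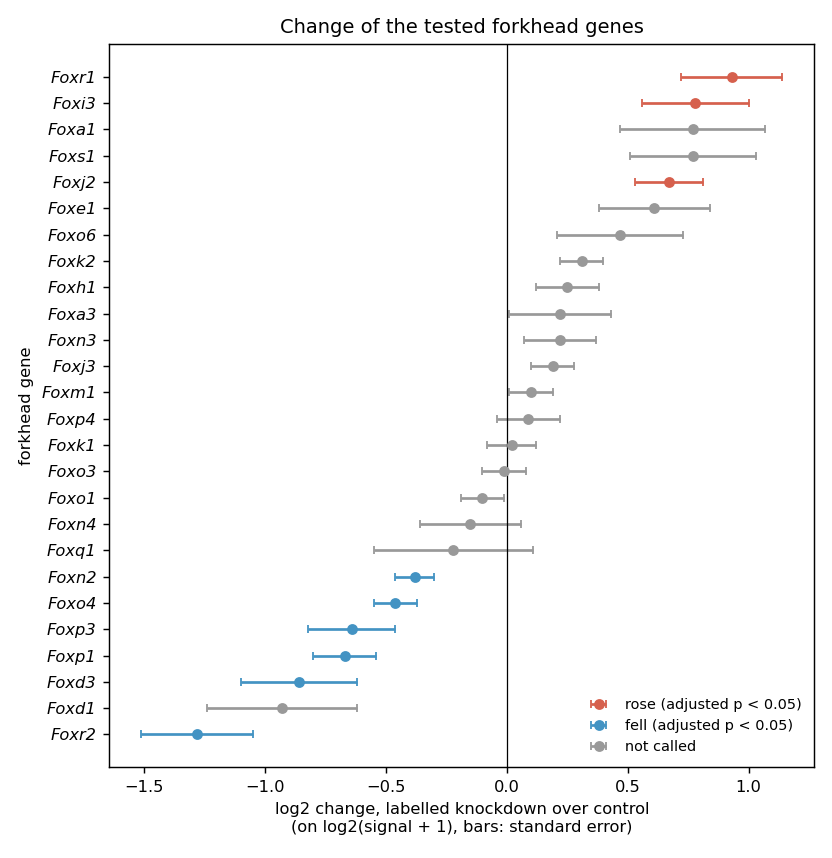
Log2 change of 26 of the 27 tested forkhead genes, knockdown-labelled libraries over controls, on the log2(signal + 1) scale with the standard error from limma (2 libraries a group). Red points rose, blue points fell and grey points did not pass. Changes run from -1.28 for Foxr2 to 0.93 for Foxr1. For genes of low signal this scale understates the change.

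These counts depended on the libraries kept. A fit without 1 library takes its spread from the other group and from the spread shared across genes. Passing there does not show that a gene's own libraries agree, as the Foxd3 controls were at 100.9 and 181.9. Without knockdown 1, Foxd3 and Foxp1 passed, and without knockdown 2, Foxd3 alone, while 7.68% and 4.39% of all genes were called in the same fits. Without control 1 there were 18 members called and without control 2 there were 12, beside 51.9% and 45.7% of all genes, and the 9 genes were among them each time. The scaling moved the balance of directions. With library size only, which shifts the median gene by 0.12 on the log2 scale, 4 members rose and 3 fell (21.1% of all genes called, 14.5% rose and 6.69% fell), and 68.4% of all calls rose, against 45.8% with the deposited scaling. Upper-quartile scaling gave 4 that rose and 4 that fell (21.6% of all genes called, 12.6% rose and 8.93% fell), and 58.6% of all calls rose. No variance trend gave 4 that rose and 2 that fell (13% of all genes, 7.17% and 5.8%), and 55.3% of all calls rose there. Without a filter on low counts, 4 rose and 4 fell, beside 13.1% of the 20934 genes then tested (6.18% rose and 6.96% fell).

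The edgeR quasi-likelihood test on recovered reads called 11 members, the 9 genes plus Foxk2 and Foxe1, of which 5 rose and 6 fell. It called 3764 or 25.3% of all genes (11.5% rose and 13.8% fell). DESeq2 called 4, of which Foxj2 rose and Foxo4, Foxp1 and Foxr2 fell, beside 14.9% of all genes (6.49% rose and 8.41% fell). With the adjusted p of the authors' deposited table, 11 of the 27 passed 0.05, namely the 9 genes in the same direction and also Foxd1 and Foxs1, beside 24.2% of the 14890 genes, or 11.5% of all 32592.

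Foxd3, a repressor and pioneer factor of the pluripotent epiblast and later of the neural crest, had the highest level per kb averaged over the 4 libraries, though not in knockdown-labelled libraries alone, and fell. Its signal was 73 and 75.1 in knockdown-labelled libraries, against 100.9 and 181.9 in controls. The groups did not overlap, but the controls lay far apart, with control 2 well above control 1. Group means were 74 ± 1.47 and 141.4 ± 57.3 (SD, n = 2 each; log2 change -0.86, SE 0.24, limma adjusted p = 0.0408). The log2 change of Foxd3 was -1.29 without control 1 and -0.44 without control 2. It did not pass with library size only (limma adjusted p = 0.0621), upper-quartile scaling (0.0554), no filter on low counts (0.062), no variance trend (0.109) or in DESeq2 (adjusted p = 0.122). The gene lies on chromosome 4, 99656299 to 99658622, plus strand, in GRCm38. Of its relatives, Foxd1, a factor of kidney stroma and retina, had 3 and 7 reads in knockdown-labelled libraries against 14 and 11 in controls. It was not called (log2 change -0.93, limma adjusted p = 0.073), while the authors' deposited table gave an adjusted p of 0.0209. Its log2 change was -1.32 without control 1 and -0.54 without control 2. On so few reads the log2(signal + 1) scale understates the change, and the ratio of the Foxd1 group means was 0.231. Foxd2 had 4 and 2 reads in knockdown-labelled libraries against 0 and 0 in controls, and Foxd4 0 and 3 in knockdown-labelled libraries against 1 and 0 in controls, too few to be tested.

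Among the FOXP factors, which act in lymphocytes, lung, heart and brain, Foxp1 and Foxp3 fell, Foxp4 did not pass and Foxp2 was almost unread. Foxp1 had a signal of 59.5 and 54 in knockdown-labelled libraries, against 80.7 and 101.8 in controls. Both knockdown-labelled libraries were below both controls, with means of 56.7 ± 3.91 and 91.3 ± 14.9 (SD, n = 2 each; log2 change -0.67, SE 0.13, limma adjusted p = 0.0143). The call was lost without knockdown 2 (limma adjusted p = 0.0761) and without a variance trend (0.0553). The log2 change of Foxp1 was -0.83 without control 1 and -0.50 without control 2. Foxp1 spans 98925338 to 99522721 on the minus strand of chromosome 6. Splice forms of this gene, which are known from human embryonic stem cells, cannot be seen in a value per gene.

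Foxp3, the defining factor of regulatory T cells, was low, at 5.5 and 5.29 in knockdown-labelled libraries and 9.05 and 8.83 in controls (62 and 68 reads in knockdown-labelled libraries against 123 and 39 in controls). Replicates lay close together, though control 2 rested on only 39 reads. The 2 groups did not overlap, and Foxp3 fell by 0.64 on the log2 scale (SE 0.18, limma adjusted p = 0.041). It did not pass without knockdown 1 (limma adjusted p = 0.257) or knockdown 2 (0.344), with library size only (0.0759), upper-quartile scaling (0.0568), no filter (0.0864) or in DESeq2 (adjusted p = 0.192). Its exons (chromosome X, 7573644 to 7595245, plus strand) overlap those of Ccdc22 on the opposite strand over 12.9% of their length, those of Ppp1r3f, also opposite, over 5.8% and those of Flicr on the same strand over 18.6%. No source states that counting used strand, so the assignment of these reads is uncertain. Foxp4 was at 196.7 and 208.5 in knockdown-labelled libraries and at 166.6 and 217.9 in controls, with overlapping groups (log2 change 0.09, SE 0.13, limma adjusted p = 0.654). Its log2 change was -0.11 without control 1 and 0.28 without control 2. Foxp2 had 3 reads in all.

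The FOXO factors, which turn on genes of cell cycle arrest, stress resistance and metabolism when AKT is inactive, did not move together, and 1 of 4 passed the test. Foxo4 fell, with a signal of 103.3 and 94.5 in knockdown-labelled libraries, against 134.5 and 138.0 in controls. The groups did not overlap and both were tight, at 98.9 ± 6.17 and 136.3 ± 2.47 (SD, n = 2 each; log2 change -0.46, SE 0.09, limma adjusted p = 0.0135). It did not pass without knockdown 1 (limma adjusted p = 0.0605), knockdown 2 (0.198) or a variance trend (0.0586). Foxo4 lies on chromosome X, 101254528 to 101260873, plus strand.

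Foxo3, which is broadly expressed, was at 236.9 and 230.4 in knockdown-labelled libraries and at 248.6 and 221.8 in controls, and the groups overlapped. Its log2 change was -0.01 (SE 0.09, limma adjusted p = 0.961), and 0.12 with library size only. Foxo1, which is required for pluripotency in embryonic stem cells, was at 75.5 and 75.1 in knockdown-labelled libraries and at 82.8 and 78.7 in controls. Its values lay slightly below the controls without passing (log2 change -0.10, SE 0.09, limma adjusted p = 0.432), and the sign turned with library size only (0.02). Foxo6, a brain-enriched FOXO factor, was at 12 and 14.6 in knockdown-labelled libraries and at 12.3 and 7.01 in controls, and was not called (log2 change 0.47, SE 0.26, limma adjusted p = 0.226). The log2 change of Foxo6 was 0.83 without control 1 and 0.10 without control 2.

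Genes that regulate FOXO proteins and known FOXO targets were counted beside them. Of 35 PI3K, AKT and FOXO regulators tested, 5 rose and 7 fell (median log2 change -0.11), and 6 rose and 3 fell with library size only. Fewer regulators were called without either knockdown library and more without either control, as among all genes tested. Each of these fits leaves a single library in a group. Pik3r3 and Pik3cd, subunits of PI3 kinase, rose 2.18-fold and 1.92-fold. Inppl1, a lipid phosphatase, had a signal of 240.8 and 236.3 in knockdown-labelled libraries and 144.0 and 123.3 in controls (log2 change 0.84, limma adjusted p = 0.00399). Pdpk1, the kinase that activates AKT, was at 124.6 and 113.8 in knockdown-labelled libraries against 179.9 and 187.8 in controls and fell 1.54-fold (limma adjusted p = 0.00615). Chosen after their values were seen, Akt1 (log2 change 0.68) and Akt2 (0.50) rose, while the deacetylase gene Sirt1 (-0.53) fell.

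Of 26 FOXO targets tested, 4 rose and 7 fell (median log2 change 0.20), and 5 rose and 4 fell with library size only. More targets fell than rose, while the median was above 0. The list holds mostly genes that FOXO proteins turn on, but also Ccnd1 and Ccnd2, D-type cyclins that they are known to repress. Ccnd2 was among those that fell (log2 change -0.70, limma adjusted p = 0.0183), named after its value was seen, and Ccnd1 did not pass (0.06). As among all genes tested, fewer targets were called without either knockdown library and more without either control. Those fits leave a single library in a group. Ccng2, an atypical cyclin linked to arrest, was at 48.4 and 44 in knockdown-labelled libraries and at 26.1 and 21.5 in controls (log2 change 0.93, SE 0.13, limma adjusted p = 0.00676). Bcl2l11, which encodes the death protein BIM, rose 1.62-fold. Sod2, the mitochondrial superoxide dismutase, was at 117.1 and 118.1 in knockdown-labelled libraries and at 215.6 and 221.8 in controls (log2 change -0.89, SE 0.08, limma adjusted p = 0.00256). Klf6 fell 1.61-fold. The share called was 34.3% for the regulators and 42.3% for the targets, beside 23% of all genes tested.

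**Figure D3:**
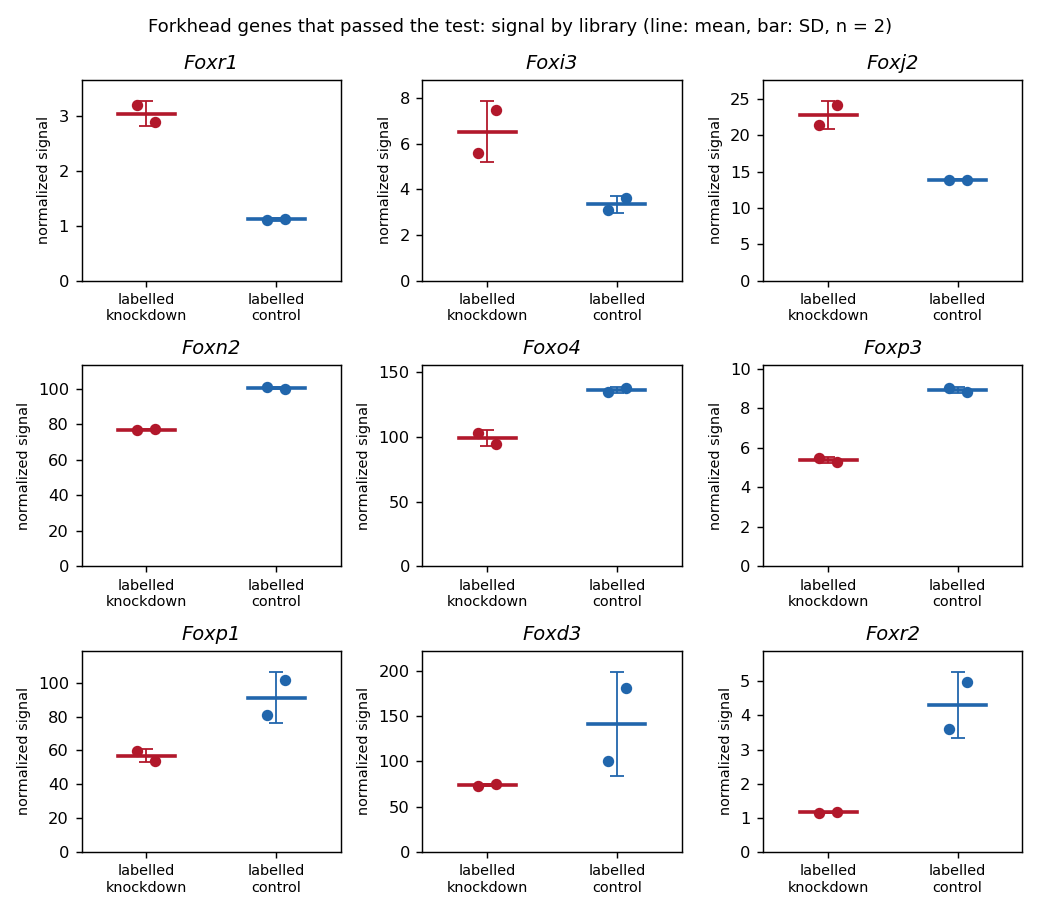
Normalized signal of the 9 forkhead genes that passed the test, with knockdown-labelled libraries on the left and control on the right of each panel. Points are libraries, the thick line is the mean and the bar the SD (n = 2). The controls of Foxd3 lie at 100.9 and 181.9, and knockdown-labelled libraries at 73 and 75.1.

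The FOXR genes, little expressed in most adult tissues, moved in opposite directions. Human FOXR2 is known as an oncogene of brain tumours. Foxr2 had a signal of 1.15 and 1.17 in knockdown-labelled libraries, against 3.61 and 4.98 in controls (13 and 15 reads in knockdown-labelled libraries against 49 and 22 in controls). Foxr1 had 3.2 and 2.88 in knockdown-labelled libraries against 1.1 and 1.13 in controls (36 and 37 reads in knockdown-labelled libraries against 15 and 5 in controls). In neither gene did the groups overlap, and the directions were opposite. Foxr2 fell (log2 change -1.28, SE 0.23, limma adjusted p = 0.0121) and Foxr1 rose (log2 change 0.93, SE 0.21, limma adjusted p = 0.0247). At such low values the log2(signal + 1) scale understates the change. The ratio of the group means was 0.271 for Foxr2 and 2.72 for Foxr1, and the ratio from summed reads was 0.295 (95% exact interval 0.183 to 0.462, counting error only) and 2.73 (1.64 to 4.72). The log2 change ran from -1.84 to -0.80 for Foxr2 and from 0.55 to 1.47 for Foxr1 over the alternatives with all libraries. Neither passed without knockdown 1 (limma adjusted p = 0.0536 for Foxr2 and 0.211 for Foxr1) or knockdown 2 (0.0704 and 0.192). Foxr1 did not pass in DESeq2 (adjusted p = 0.142). Foxr2 lies on chromosome X, 153118786 to 153132861, plus strand, and Foxr1 on chromosome 9, 44433773 to 44441136, minus strand.

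The promoters of 27 of the 41 genes are in the RefSeq table of GRCm38.p6, as 30 stretches of 300 bases, from 250 before to 50 after a start site. Those of Foxr1 and Foxr2, which moved in opposite directions, of Foxd3, which had the highest mean level per kb of those that fell, and of Foxj2, which had the most reads among those that rose, are shown 5′ to 3′ on the gene's strand. Capitals mark the letters of 7 motifs found on either strand. The forkhead motif searched was GTAAACA and the GC box was GGGCGG, while the CCAAT box carries its letters in its name. The octamer searched was ATGCAAAT and the E-box was CACGTG. The TATA box searched was TATAAA, and the cyclic AMP response element, TGACGTCA, was added after the Foxd3 sequence had been seen. They are from chr9:44440819-44441118 (Foxr1, minus strand), chrX:153118538-153118837 (Foxr2, plus strand), chr4:99656049-99656348 (Foxd3, plus strand) and chr6:122819934-122820233 (Foxj2, plus strand).
Foxr1: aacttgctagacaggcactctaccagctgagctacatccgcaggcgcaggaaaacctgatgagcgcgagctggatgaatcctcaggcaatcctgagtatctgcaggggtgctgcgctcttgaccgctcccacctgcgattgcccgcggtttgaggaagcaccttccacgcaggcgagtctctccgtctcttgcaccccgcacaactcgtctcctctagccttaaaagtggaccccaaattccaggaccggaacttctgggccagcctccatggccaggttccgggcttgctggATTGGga
Foxr2: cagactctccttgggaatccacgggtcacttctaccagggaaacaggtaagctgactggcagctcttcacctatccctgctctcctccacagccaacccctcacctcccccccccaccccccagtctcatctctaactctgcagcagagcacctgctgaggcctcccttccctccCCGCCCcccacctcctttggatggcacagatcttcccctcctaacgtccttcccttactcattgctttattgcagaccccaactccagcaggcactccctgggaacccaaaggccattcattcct
Foxd3: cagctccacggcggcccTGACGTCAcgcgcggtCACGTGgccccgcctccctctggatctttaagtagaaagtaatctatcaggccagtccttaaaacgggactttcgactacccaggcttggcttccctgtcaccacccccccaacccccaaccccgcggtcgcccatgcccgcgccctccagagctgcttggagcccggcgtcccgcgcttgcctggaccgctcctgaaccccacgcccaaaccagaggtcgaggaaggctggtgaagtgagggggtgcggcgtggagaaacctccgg
Foxj2: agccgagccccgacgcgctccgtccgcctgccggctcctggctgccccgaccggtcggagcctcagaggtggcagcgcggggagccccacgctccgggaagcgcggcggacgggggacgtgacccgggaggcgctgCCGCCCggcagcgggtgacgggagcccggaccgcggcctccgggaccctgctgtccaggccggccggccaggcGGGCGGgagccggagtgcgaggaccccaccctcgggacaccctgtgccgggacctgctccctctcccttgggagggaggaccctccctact
The promoter of Foxr1 held 16 CpG dinucleotides and 1 CCAAT box, and that of Foxr2 held 3 CpG dinucleotides and 1 GC box. The promoter of Foxd3 held 25 CpG dinucleotides, 1 E-box and 1 cyclic AMP response element, and that of Foxj2 37 CpG dinucleotides and 2 GC boxes. The median promoter held 22 CpG dinucleotides among the members and 7 among all 32851 promoters. A GC box was present in 70% of the members' promoters, beside 35.7% of all promoters, a CCAAT box in 46.7% beside 37.4%, and a TATA box in 6.67% beside 13.6%. The forkhead motif was in 1 of the 30 (Foxa1), or 3.33% beside 3.65% of all, and the octamer in 0 of the 30 beside 1.74%. The E-box and the cyclic AMP response element were each in the Foxd3 promoter alone among the 30, beside 7.15% and 1.79% of all promoters. These matches describe letters and no binding was measured.

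FOXJ and FOXN genes did not share a direction. Foxj2, a broadly expressed activator, had a signal of 21.4 and 24.1 in knockdown-labelled libraries, against 13.9 and 13.8 in controls. The groups were clearly apart, at 22.7 ± 1.88 and 13.9 ± 0.0754 (SD, n = 2 each; log2 change 0.67, SE 0.14, limma adjusted p = 0.0184). It did not pass without knockdown 1 (limma adjusted p = 0.0997) or knockdown 2 (0.258). Its paralog Foxj3 was at 74.2 and 75.8 in knockdown-labelled libraries and at 68.9 and 62.2 in controls. Foxj3 was not called (log2 change 0.19, limma adjusted p = 0.178). Its log2 change was 0.27 without control 1 and 0.12 without control 2. Foxj2 lies on chromosome 6, 122819914 to 122845366, plus strand.

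Foxn2 had a signal of 76.6 and 77.2 in knockdown-labelled libraries and 100.8 and 99.8 in controls. Replicates agreed closely, and Foxn2 fell (log2 change -0.38, SE 0.08, limma adjusted p = 0.021). It did not pass without knockdown 1 (limma adjusted p = 0.203), knockdown 2 (0.236) or a variance trend (0.0715), with library size only (0.0683) or in DESeq2 (adjusted p = 0.0615). It lies on chromosome 17, 88440711 to 88490533, plus strand. Foxn3, a transcriptional repressor, was at 27.3 and 23.6 in knockdown-labelled libraries and at 24.2 and 19.5 in controls. It was not called (log2 change 0.22, limma adjusted p = 0.341). The log2 change of Foxn3 was 0.37 without control 1 and 0.07 without control 2. Foxn4, a factor of retinal and spinal interneurons, was at 11.5 and 9.81 in knockdown-labelled libraries and at 14.2 and 9.96 in controls (log2 change -0.15, limma adjusted p = 0.622). The log2 change of Foxn4 was 0.08 without control 1 and -0.39 without control 2. The groups of Foxn3 and of Foxn4 overlapped. Foxn1, the gene altered in nude mice, had 5 reads in all.

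Foxi3, a factor of hair, teeth and inner ear placodes, was low and rose. Its signal was 5.59 and 7.48 in knockdown-labelled libraries, against 3.09 and 3.62 in controls (63 and 96 reads in knockdown-labelled libraries against 42 and 16 in controls). The groups did not overlap, at 6.53 ± 1.33 and 3.36 ± 0.374 (SD, n = 2 each; log2 change 0.78, SE 0.22, limma adjusted p = 0.0414). It did not pass without knockdown 1 (limma adjusted p = 0.122) or knockdown 2 (0.418), with no filter on low counts (0.0849) or in DESeq2 (adjusted p = 0.123). Foxi3 lies on chromosome 6, 70956531 to 70961066, plus strand.

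The FOXK, FOXM and FOXH genes, all abundant here, did not pass. Foxk2, which with Foxk1 represses genes of autophagy, was at 127.0 and 114.7 in knockdown-labelled libraries and at 93.2 and 100.7 in controls. The groups did not overlap, and the value stood at the threshold (log2 change 0.31, SE 0.09, limma adjusted p = 0.0503). Foxk2 passed in the edgeR test (adjusted p = 0.0441), with library size only (limma adjusted p = 0.0187) and with upper-quartile scaling (0.0288). It did not pass with no variance trend (limma adjusted p = 0.131), no filter (0.0652) or in DESeq2 (adjusted p = 0.0851). With 1 library left out, its log2 change ran from 0.24 to 0.39. Foxk1 was at 67.4 and 70.5 in knockdown-labelled libraries and at 63.5 and 72.9 in controls (log2 change 0.02, SE 0.10, limma adjusted p = 0.91). Its groups overlapped, and its log2 change was -0.08 without control 1.

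Foxm1 was at 144.6 and 139.6 in knockdown-labelled libraries and at 126.5 and 139.4 in controls. This small difference did not pass (log2 change 0.10, SE 0.09, limma adjusted p = 0.448). Its log2 change was 0.03 without control 1 and 0.17 without control 2. Of 28 FOXM1 targets tested, 0 rose and 4 fell in limma (median log2 change -0.13, and -0.01 with library size only, where 0 rose and 2 fell). At an unadjusted limma p below 0.05, 0 rose and 10 fell (35.7% of the list), beside 18.6% and 20.2% of all genes tested. At that threshold 30.8% of FOXO targets, 30% of the Nodal and FOXH1 pathway and 28.6% of the FOXO regulators also fell. In those lists 26.9%, 30% and 22.9% rose. Among FOXM1 targets, edgeR and DESeq2 also called 0 that rose. Nek2, a centrosome kinase, was at 131.8 and 118.7 in knockdown-labelled libraries and at 172.8 and 191.7 in controls (log2 change -0.54, limma adjusted p = 0.0115). Skp2, a ubiquitin ligase subunit that also stands among the FOXO regulators, fell 1.49-fold, Cenpf 1.28-fold and Birc5, which encodes survivin, 1.25-fold. The share called was 14.3%, below the 23% of all genes tested. Leaving out either knockdown library gave fewer FOXM1 targets that fell, and leaving out either control gave more. Calls among all genes tested moved the same way, in fits with a single library in a group.

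Foxh1 was at 35.3 and 37.5 in knockdown-labelled libraries and at 33.7 and 27.4 in controls. The values did not overlap but did not pass (log2 change 0.25, SE 0.13, limma adjusted p = 0.208). The log2 change of Foxh1 was 0.40 without control 1 and 0.11 without control 2. Of 20 tested genes of the Nodal and FOXH1 pathway, 5 rose and 3 fell (40% called, beside 23% of all genes tested). The median log2 change was -0.01, and 0.11 with library size only, where 5 rose and 1 fell. Fewer genes of this pathway were called without either knockdown library and more without either control, as among all genes tested. Such fits leave a single library in a group. Nodal, the ligand, was at 129.9 and 150.0 in knockdown-labelled libraries and at 99.4 and 78.5 in controls (log2 change 0.65, SE 0.13, limma adjusted p = 0.0164). Tgif1, a corepressor of SMAD proteins, fell 1.36-fold and Pcsk6, a convertase of Nodal, 1.42-fold. The Nodal inhibitors Lefty1 and Lefty2, chosen after their values were seen, went opposite ways, with log2 changes of 0.94 and -0.83 (limma adjusted p = 0.026 and 0.0331).

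**Figure D4:**
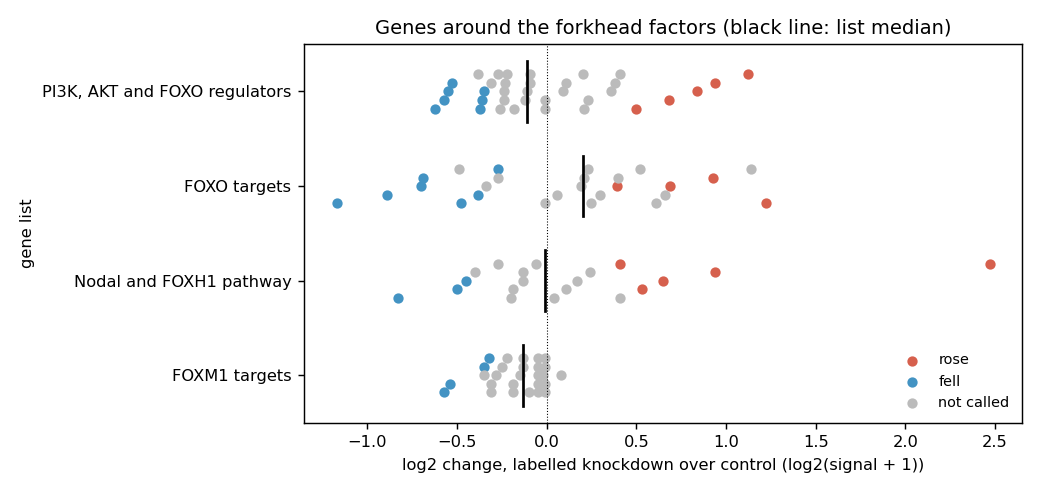
Log2 change of the tested genes of 4 lists around the forkhead factors, knockdown-labelled libraries over control on the log2(signal + 1) scale. Each point is a gene (red rose, blue fell, grey did not pass) and the black line is the list median, which is -0.11 for the regulators, 0.20 for FOXO targets, -0.01 for the Nodal pathway and -0.13 for FOXM1 targets.

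Some forkhead factors of later lineages had few reads, though Foxn4, Foxo6 and Foxi3 had 492, 521 and 217 summed over the libraries. Foxa1, a pioneer factor of endoderm, had 19 and 23 reads in knockdown-labelled libraries and 15 and 1 in controls. It was not called (log2 change 0.77, limma adjusted p = 0.108). The ratio of the Foxa1 group means was 2.61, with 1 read in control 2. The log2 change of Foxa1 was 1.16 without control 1, which leaves the control with 1 read, and 0.38 without control 2. Foxa3, another endoderm factor, had 30 and 38 reads in knockdown-labelled libraries against 31 and 10 in controls (limma adjusted p = 0.477).

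Foxe1, a thyroid factor, had 10 to 11 reads in knockdown-labelled libraries and 1 to 3 in controls. It missed the threshold in limma (log2 change 0.61, adjusted p = 0.0961) and passed in edgeR (adjusted p = 0.0492), without a variance trend (0.0348) and with no filter (0.0345). Foxs1, a factor of sensory neurons and vessel walls, had 11 to 13 reads in knockdown-labelled libraries and 0 to 5 in controls. It did not pass in limma (log2 change 0.77, adjusted p = 0.0725) but passed with no filter (0.0425). Its log2 change was 1.00 without control 1 and 0.54 without control 2. The authors' deposited table gave Foxs1 an adjusted p of 0.044. In Foxe1 and Foxs1 the groups did not overlap.

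Foxq1, a hair follicle factor, had a signal of 2.84 to 2.96 in knockdown-labelled libraries and 2.21 to 5.43 in controls (log2 change -0.22, limma adjusted p = 0.663). The log2 change of Foxq1 was -0.72 without control 1 and 0.28 without control 2. Over 66.1% of its exon length Foxq1 is overlapped by A530084C06Rik on the opposite strand, so its reads are uncertain.

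None of the genes below had enough reads to be tested. The mesenchyme factor Foxc2 had 11 and 9 reads in knockdown-labelled libraries and 4 and 1 in controls, and Foxc1 6 and 7 in knockdown-labelled libraries against 4 and 4 in controls. Foxf1 had 1 and 5 reads in knockdown-labelled libraries against 0 and 0 in controls, and Foxf2 6 and 6 in knockdown-labelled libraries against 3 and 0 in controls, both factors of the mesenchyme of gut and lung. Foxl2, the ovarian factor, had 8 and 5 reads in knockdown-labelled libraries against 3 and 0 in controls. Foxb1 had 1 read in all. Over the 10 untested genes with a read, the mean signal was higher in knockdown-labelled libraries for 7 and lower for 3, at no more than 25 reads a gene. The same split was not counted over all genes with so few reads, so this one has no background beside it. The ratio of summed reads, scaled by depth, was 2.99 for Foxc2 (95% exact interval 1.09 to 10.2, counting error only). Foxc2 was chosen after the values were seen. The ratio was also 2.99 for Foxf2 (0.806 to 16.5) and was 3.24 for Foxl2 (0.89 to 17.7). The intervals of Foxf2, Foxl2, Foxc1, Foxd4, Foxn1 and Foxp2 all included a ratio of 1. No test over libraries was run on these genes.

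Some markers of other cell types differed between the same libraries, where 23% of all genes tested were called (10.5% rose and 12.4% fell). The share called was 40% of fibroblast, 9.09% of primitive endoderm, 20% of mesoderm, and 50% each of neural and embryonic stem cell markers. The summed signal of 11 fibroblast and mesenchyme markers was 46.3 and 45.7 in knockdown-labelled libraries and 32.5 and 24.7 in controls. Of 5 tested, 2 rose (Col1a1 2.42-fold and Pdgfrb 1.9-fold), while Dcn and Lum, defining genes of fibroblasts, were at 0 in all libraries. Primitive endoderm markers summed to 176.6 and 168.3 in knockdown-labelled libraries and 207.8 and 233.3 in controls (1 of 11 fell, Lama1, 2.2-fold). Mesoderm and streak markers summed to 28.1 and 28.6 in knockdown-labelled libraries against 19.9 and 19.7 in controls (1 of 5 tested rose, Hand1, 3.09-fold). Neural and neural crest markers summed to 47.9 and 50.4 in knockdown-labelled libraries against 41.4 and 38.9 in controls, and of 6 tested Nes and Sox10 rose and Pax6 fell. Of 10 embryonic stem cell markers, 5 fell, among them Zfp42 2.09-fold, Klf4 1.81-fold, Esrrb 1.58-fold and Tfcp2l1 1.51-fold. The part of these shifts in the forkhead values was not tested. In bulk samples, fewer cells of a type and less RNA per cell cannot be told apart.

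GC content also moved with the changes. Of all genes tested with a transcript GC content of at least 55%, 18.6% rose and 6.34% fell, and below 45%, 4.37% rose and 19.1% fell. The tested forkhead genes had a median GC content of 55%, against 50.3% for all genes tested. The 3 members below 45%, Foxn2, Foxr2 and Foxp1, all fell. Of the 14 members at 55% or above, 2 rose (Foxi3 and Foxj2) and 3 fell, of which Foxd3 had 65.1%, Foxo4 55.2% and Foxp3 55%. The part of GC content in these values was not tested.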

How the data were processed

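The submitters' processing notes name build mm9, edgeR 3.26.8, HTSeq 0.11.2, Bowtie2 2.3.4.3 and SAMtools 1.9 with no role. Neither the annotation nor the strand setting is given in the sources used here. As deposited, the signal is, as its values show, gene counts over an effective library size: within 0.001, 100% of values are whole multiples of 1 read. The authors' deposited comparison gives, per the file headers, p-values with adjusted values, a log2 fold change, a log2 CPM and a score from a likelihood ratio. The edgeR quasi-likelihood test on recovered reads called 3764 genes.

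Groups came from sample titles. Genes passing filterByExpr (edgeR 4.0.16) on recovered reads were kept, and limma 3.58.1 (R 4.3.3) with a variance trend was fitted to log2(signal + 1) over all 14890 genes, two-sided, with Benjamini-Hochberg adjustment. Alternatives, including DESeq2 1.42.0, are in the closing section; the fit was tested on simulated data. Coordinates, exon lengths and GC content of the longest transcript are from GENCODE M21 (GRCm38), matched by gene ID for 41 of 41 members; none was converted. The members, 5 lists around them and 5 marker lists, with 170 entries in the table, were chosen with earlier results of these data known. Per-library values are given for called members and the 10 highest per kb, and for others chosen after their values were seen, and list genes by the smallest p (up to 4). Values of 1 tested member and of some list genes are not reported here. Without molecular identifiers, PCR reads are no independent molecules, so intervals hold counting error only.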

Additional observations from a re-analysis of the deposited data

How the results depend on the processing

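Alternatives left the 9 called genes in the same direction throughout. The number of forkhead genes called was 4 in DESeq2 (1 rose, 3 fell), against 9 (3 rose, 6 fell); 5 rose in edgeR, 2 fell with no variance trend and 3 fell with library size only. All genes called numbered 3418, with 2219 in DESeq2 and 1932 with no variance trend, where the 34 list genes called became 16; the cause was not tested. Leaving out 1 library gave 1 to 18 forkhead genes called (0 to 10 rose, 1 to 8 fell), 653 to 7724 genes over all and 10 to 70 list genes. A sample left alone is assumed to vary like the other group. Such fits take their spread from fewer libraries, and knockdown libraries differ less than controls. Some genes not called turned sign. With library size only, Foxo1 went to 0.02 and Foxo3 to 0.12. Foxo3 was also at 0.06 with upper-quartile scaling and at 0.01 in DESeq2. Without 1 library, Foxo3 ran from -0.09 to 0.07, Foxk1 from -0.08 to 0.12 and Foxp4 from -0.11 to 0.28. In the same fits Foxn4 ran from -0.39 to 0.08 and Foxq1 from -0.72 to 0.28. With the replicate number as a block, 12 forkhead genes were called (5 rose, 7 fell), the 9 among them, and 4632 genes (31.1%) over all; the labels give no pairing, and deviations of same-numbered samples correlated at 0.0356. Pseudocounts of 0.25 and 3 gave 9 and 10 calls, no filter 8. Depth limits genes under about 25 reads.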

Other observations

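Of 5 noncoding RNAs listed beside forkhead genes, 2 were matched by symbol, and neither had enough reads to be tested. Foxd2os had 2 and 2 reads in knockdown-labelled libraries and 0 and 0 in controls. Foxo6os had 0 and 0 reads in knockdown-labelled libraries and 1 and 1 in controls.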
